A study of Mus musculus with 12 samples.

Results

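The genes described here are 9 genes of the forebrain GABAergic interneuron lineage: the homeobox genes Dlx1, Dlx2, Dlx5 and Dlx6, the glutamate decarboxylase genes Gad1 and Gad2, the zinc finger genes Sp8 and Sp9, and the LIM homeobox gene Lhx6. They were chosen by symbol, and all 9 were found among the 24525 genes of the read count tables. The cells were neural stem/progenitor cells (NSPCs) of C57BL/6 mice, taken from the E14.5 forebrain and grown at passage 1 as free-floating neurospheres with 20 ng/ml EGF and 10 ng/ml bFGF, so every culture was kept under conditions that favour proliferation. mRNA was sequenced from 3 wild-type and 3 Ythdf2-/- cultures, before the antibody step of an m6A immunoprecipitation. Ythdf2-/- embryos came from intercrosses of heterozygotes, whose targeted allele had lost the 5′ UTR and exon 1 of Ythdf2 to a ubiquitously expressed Cre, so the deletion was present in every cell and not in a chosen cell type. Ythdf2 encodes a reader of m6A that promotes decay of methylated mRNA, and the comparison of genotypes asks how its loss alters mRNA levels in these cells. How many embryos went into each culture is not given in the sources used here, and p-values measure the spread between these libraries.

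Interneurons of the cortex and olfactory bulb are born in the ganglionic eminences of the ventral forebrain. There, Dlx1 and Dlx2 act in progenitors and newborn cells, Dlx5 and Dlx6 follow in maturing neurons, Sp8 and Sp9 act in precursors of olfactory bulb and other interneurons, and Lhx6 marks the branch from the medial eminence. Gad1 and Gad2 encode the enzymes that make the transmitter GABA from glutamate, and the product of Slc32a1 loads GABA into synaptic vesicles.

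Most of these genes lie on the same chromosome. In GRCm38, the assembly also called mm10, 6 of the 9 genes (66.7%) lie on chromosome 2, which holds 8.69% of the placed genes in the tables. Dlx1 (plus strand, 71528113 to 71533981, 3 exons) and Dlx2 (minus strand, 71543408 to 71546754, 3 exons) converge with 9.43 kb between them. Gad1 (plus strand, 70561303 to 70602014, 17 exons) ends 0.926 Mb before Dlx1, and Sp9 (plus strand, 73271926 to 73275771, 2 exons) starts 1.73 Mb after Dlx2. Gad2 (plus strand, 22621015 to 22693877, 16 exons) and Lhx6 (minus strand, 36081950 to 36105992, 10 exons) lie farther away on chromosome 2. Dlx6 (plus strand, 6863334 to 6867970) and Dlx5 (minus strand, 6877801 to 6882068) form a second converging pair on chromosome 6, with 9.83 kb between them. Sp8 (plus strand, 118846288 to 118852578, 3 exons) is on chromosome 12. Dlx1 shares 1055 exon bases with the antisense RNA Dlx1as, and Dlx6 shares 104 with Dlx6os2. The strand setting of the counting is not given in the sources used here, so reads in these stretches cannot be assigned to a strand.

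Promoters are shown because Sp8 and Sp9, a related pair on different chromosomes, share an exact stretch of sequence, and because Dlx2 shares a shorter one with both. The sequences are from RefSeq for GRCm38.p6, as windows of 300 bases from 250 before to 50 after each start site. 11 such windows covered 7 of the 9 genes, all but Dlx5 and Dlx6. The longest run common to the windows of any pair of these genes was GCGGCACTTCAAAGC, of 15 bases, which was found, on either strand, in 2 of 32851 promoters, those of Sp8 and Sp9. It is in capitals in the following 30-base stretches.
Sp9, chr2:73271889-73271918, plus strand: gcagccaGCGGCACTTCAAAGCgggtgctc
Sp8, chr12:118847168-118847197, plus strand: cgcctccGCGGCACTTCAAAGCcggagagg
The letters GATTGGCTG, which hold a CCAAT box read on the other strand, were found in 1 promoter each of Dlx2, Sp8 and Sp9, and, on either strand, in 664 of the 32851 promoters. They are in capitals in these stretches.
Dlx2, chr2:71546810-71546839, minus strand: cattccttctGATTGGCTGttgctaggtga
Sp9, chr2:73271822-73271851, plus strand: cggagcgtctGATTGGCTGcggggcagctc
Sp8, chr12:118847145-118847174, plus strand: cgaggccacaGATTGGCTGgccgcgcctcc
The homeodomain core TAATTA stood in 1 of the 3 Sp8 promoters, 188 bases before that start site, and in 5.29% of all promoters. It is in capitals here.
Sp8, chr12:118847359-118847388, plus strand: ctcttgctggttTAATTAgtttccttttat
These letters were picked after the sequences had been seen, and a match is a description and not a binding site.

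The libraries held 11029827 to 13185778 counted reads. Levels are given as CPM, the reads of a gene scaled to library size, after TMM scaling with factors of 0.988 to 1.03, and 13112 genes passed the filter on low counts. The targeted gene Ythdf2 had a level of 78.9 ± 10.9 CPM in wild-type cells against 12.5 ± 1.91 CPM in Ythdf2-/- cells (SD, n = 3), and the groups did not overlap. Radial glia and stem cell genes, the defining markers of NSPCs, all passed the filter, 11 of 11, with a summed level of 8594 to 13263 CPM. Wild-type replicate 3 stood apart from the other 5 libraries: its summed oligodendrocyte-lineage level was 3648 CPM against 1582 to 1905, its astrocyte level was 7838 CPM against 1647 to 3796, and its mesenchymal level was 35.1 CPM against 2.59 to 5.48. Reads of 4 Y-linked genes were present in wild-type replicates 1 and 2 and Ythdf2-/- replicate 3 (1111 to 2147 reads) and all but absent from the other 3 libraries (0 or 1 read). The fold changes of the tested members are given below with and without wild-type replicate 3, as are those of several other genes whose direction turned without it. In bulk RNA, fewer cells of a type and less RNA per cell cannot be told apart.

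The interneuron genes were unevenly present. Gad1 was well expressed, Sp8, Dlx1, Dlx2, Gad2 and Sp9 were low, Lhx6 was near 0, and Dlx5 and Dlx6 had no read in any library. The absence of Dlx5 and Dlx6 reads allows up to 0.222 to 0.275 CPM per library, or 0.0409 CPM over all 6, at 3 counts, and such limits and the intervals below cover counting error only. Per kilobase of exon (RPKM, here CPM divided by the summed exon length in kilobases), the wild-type order of mean levels was Gad1 at 12.1, Sp8 at 1.07, Dlx2 at 0.947, Dlx1 at 0.512, Sp9 at 0.284, Gad2 at 0.207 and Lhx6 at 0.0212. Only the neighbours Gad1 and Sp8, and Gad2 and Lhx6, had ranges that did not overlap. In Ythdf2-/- the order of mean RPKM was Gad1 at 10.4, Dlx2 at 0.391, Sp8 at 0.230, Gad2 at 0.222, Dlx1 at 0.221, Sp9 at 0.193 and Lhx6 at 0.0070. Here Gad1 and Dlx2, and Sp9 and Lhx6, were the neighbours without overlap, so Sp8 ranked above Dlx2 in one genotype and below it in the other by less than the spread. Among 23615 genes with a length, the mean RPKM of Gad1 was above that of 74.9%, while Sp8 stood above 48.9% and Gad2 above 42.5%.

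**Figure D1:**
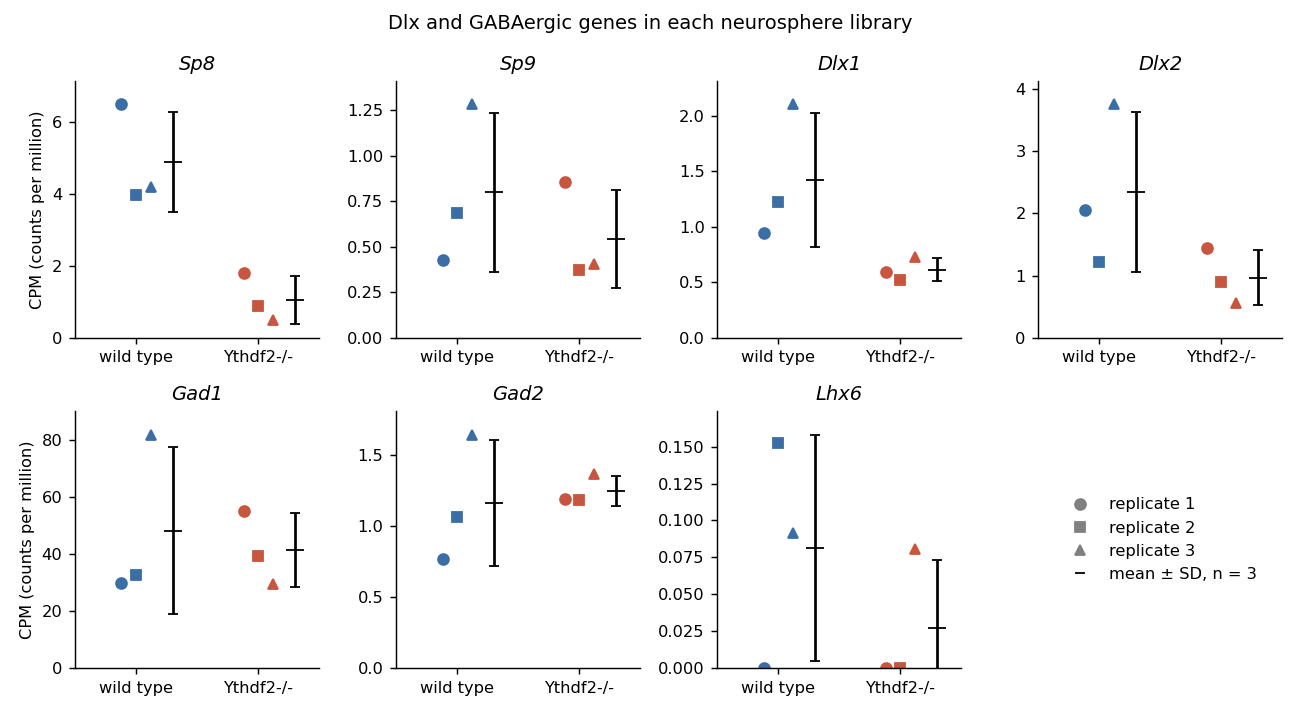
CPM (y axis, linear from 0, its own scale in each panel) of the 7 genes with any read, in 3 wild-type (blue) and 3 Ythdf2-/- (red) libraries; symbols are replicates, and black bars are the mean ± SD, with n = 3, cut at 0 where the bar would pass it. The Ythdf2-/- libraries lie below all wild-type libraries for Sp8 and Dlx1, and wild-type replicate 3 is the highest library for Sp9, Dlx1, Dlx2, Gad1 and Gad2.

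Between genotypes, Sp8, a zinc finger factor of ventral forebrain precursors, had the largest fitted fold change of the 5 genes that could be tested. Its level was 6.50, 3.97 and 4.21 CPM in wild-type replicates 1 to 3, from 76, 52 and 46 reads. In Ythdf2-/- replicates 1 to 3 it was 1.79, 0.889 and 0.483 CPM, from 21, 12 and 6 reads. Every Ythdf2-/- library was below every wild-type library, and the highest Ythdf2-/- value was less than the lowest wild-type value by more than either group's SD. The means were 4.89 ± 1.40 CPM (SD, n = 3) and 1.05 ± 0.669 CPM (SD, n = 3), so Ythdf2-/- stood at 21.5% of wild type. Pooled over each genotype, the exact 95% Poisson intervals were 4.17 to 5.65 CPM and 0.736 to 1.42 CPM. The fitted log2 fold change was -2.21 (SE 0.52, 95% interval -3.46 to -0.96).

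Whether Sp8 passed the test depended on the tool. With edgeR's quasi-likelihood test its unadjusted p was 0.00467 and its adjusted p 0.999, in a fit that called 0% of 13112 genes at an adjusted p under 0.05 and 3.63% at an unadjusted p under 0.05. Ythdf2 itself had an adjusted p of 0.0547 in that edgeR fit. 33 genes had a smaller p than Sp8 and 73 a lower log2 fold change. With DESeq2 its adjusted p was 0.00641, in a fit that called 0.476% of 18483 genes, and with limma-voom and library weights it was 0.0671, in a fit that called 1.15%. An exact two-sided permutation test over the 6 libraries gave p = 0.1, the smallest that 3 against 3 allows.

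The Sp8 difference did not rest on a single library. The log2 fold change ranged from -2.80 to -1.87 when each library was left out in turn, and it was -2.31 without wild-type replicate 3, with an adjusted p of 0.175 in edgeR's test. Among the 3 libraries with Y-linked reads, the Ythdf2-/- level was 9.22% of the wild-type mean, and among the 3 without such reads it was 31.8%. Each of these comparisons sets 2 libraries against 1.

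Sp9, the close relative of Sp8 that is coexpressed with it in ventral precursors, was lower and more scattered. It was at 0.428, 0.687 and 1.28 CPM in wild type and at 0.853, 0.370 and 0.402 CPM in Ythdf2-/-, from 5 to 14 reads a library. The groups overlapped, with means of 0.799 ± 0.438 CPM (SD, n = 3) and 0.542 ± 0.270 CPM (SD, n = 3), and Sp9 did not pass the filter on low counts. In a fit without that filter its log2 fold change was -0.53 (SE 0.60). The RPKM of Sp8 was 9.32, 3.54 and 2.01 times that of Sp9 in the wild-type libraries and 1.29, 1.47 and 0.736 times in the Ythdf2-/- libraries. These ratios did not overlap, but Sp8 alone already separated the groups and Sp9 had few reads, so they are not a separate result. Of 7 other genes of the Sp family of zinc finger factors, 4 passed the filter and the other 3 had under 10 reads in all. Sp1 was at 126 ± 10.8 CPM in wild type and 126 ± 9.03 CPM in Ythdf2-/-, and Sp3 was at 117 ± 9.34 and 122 ± 5.95 CPM (SD, n = 3). Sp4 was at 46.1 ± 19.6 and 38.9 ± 4.0 CPM, with a log2 fold change of -0.24 that was 0.16 without wild-type replicate 3, and Sp2 was at 19.7 ± 0.847 and 22.0 ± 1.31 CPM (SD, n = 3). Of these 4 genes, Sp2 alone had groups that did not overlap, with Ythdf2-/- higher, and none had an unadjusted p under 0.05 in edgeR's test. Of all genes tested, 5.24% had every Ythdf2-/- library above every wild-type library.

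Dlx1 and Dlx2, the early homeobox genes of the lineage, were low in all libraries and lower on average in Ythdf2-/-. Dlx1 was at 0.941, 1.22 and 2.11 CPM in wild type, from 11, 16 and 23 reads, and at 0.597, 0.518 and 0.724 CPM in Ythdf2-/-, from 7, 7 and 9 reads. Its groups did not overlap, but the gap between the lowest wild-type and the highest Ythdf2-/- library was 11 against 9 reads. The means were 1.42 ± 0.607 and 0.613 ± 0.104 CPM (SD, n = 3), with a log2 fold change of -1.20 (SE 0.44, unadjusted p = 0.0319 and adjusted p = 0.999 in edgeR's test). Dlx1 passed the filter through its 3 wild-type libraries alone, so it could enter the test only as a gene higher there. Dlx1as, on the other strand, had 0 to 3 reads a library.

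Dlx2 was at 2.05, 1.22 and 3.75 CPM in wild type, from 24, 16 and 41 reads, and at 1.45, 0.889 and 0.563 CPM in Ythdf2-/-, from 17, 12 and 7 reads. The groups overlapped, since wild-type replicate 2 was below Ythdf2-/- replicate 1. The means were 2.34 ± 1.29 and 0.967 ± 0.448 CPM (SD, n = 3), with a log2 fold change of -1.27 (SE 0.56, unadjusted p = 0.0621 and adjusted p = 0.999 in edgeR's test). For both genes wild-type replicate 3, the library with high glial levels, was the highest. Without it, the log2 fold change of Dlx1 was -0.82 and that of Dlx2 was -0.75, with adjusted p-values of 0.366 and 0.485 in an edgeR fit that called 0.0151% of its genes. Among libraries without Y-linked reads, where wild-type replicate 3 is the sole wild-type library, Dlx1 in Ythdf2-/- was at 26.5% and Dlx2 at 31.2% of wild type. Among those with such reads these values were 67.0% and 34.4%. Of the other Dlx genes in the tables, Dlx3 had no read in any library and Dlx4 had 1 read in each of Ythdf2-/- replicates 2 and 3, and the antisense RNAs Dlx6os1 and Dlx6os2 had none.

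**Figure D2:**
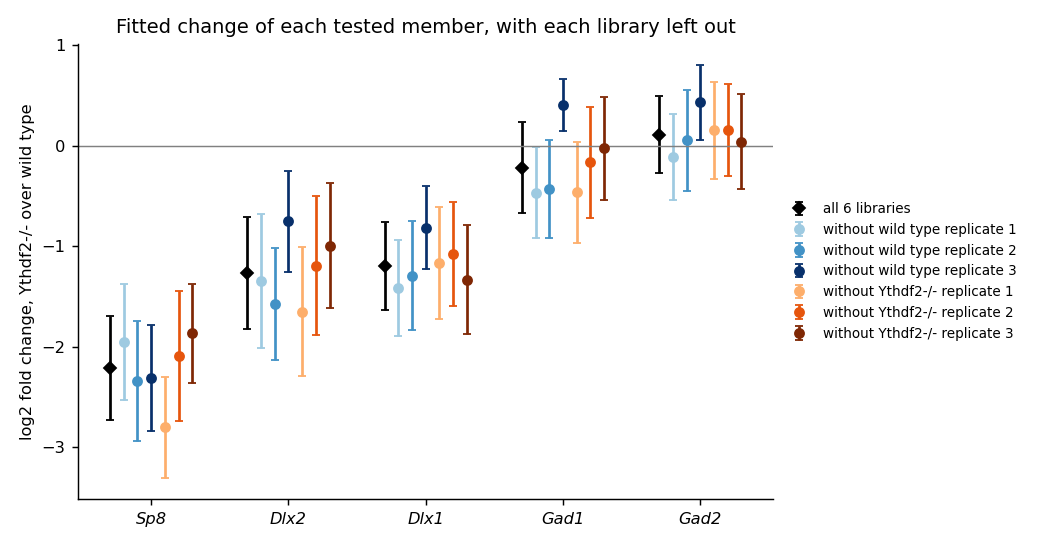
Fitted log2 fold change, Ythdf2-/- over wild type (y axis), of the 5 genes that passed the filter, with all 6 libraries (diamonds) and with each library left out (circles); bars are the standard error. Sp8, Dlx1 and Dlx2 stay below 0 in all 7 fits, while Gad1 moves from -0.22 to 0.40 without wild-type replicate 3.

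Gad1 was the most abundant of the genes, and its genotypes were not told apart. It was at 29.7, 32.7 and 82.0 CPM in wild type and at 55.3, 39.2 and 29.6 CPM in Ythdf2-/-. Wild-type replicate 3 was the highest library, while wild-type replicates 1 and 2 lay among the lower Ythdf2-/- values. The means were 48.1 ± 29.4 and 41.4 ± 13 CPM (SD, n = 3), with a log2 fold change of -0.22 (SE 0.45) that turned to 0.40 (SE 0.26) without wild-type replicate 3. At 347 to 896 reads a library, counting error was small beside this spread, since the pooled exact 95% Poisson intervals were 44.6 to 49.1 CPM and 39.0 to 43.1 CPM.

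Gad2 was measured at 0.770, 1.07 and 1.65 CPM in wild type and 1.19, 1.18 and 1.37 CPM in Ythdf2-/-, from 9 to 18 reads a library. The Ythdf2-/- libraries lay within the wild-type range, with means of 1.16 ± 0.446 and 1.25 ± 0.103 CPM (SD, n = 3) and a log2 fold change of 0.11 (SE 0.39) that was 0.43 (SE 0.37) without wild-type replicate 3. The 2 decarboxylase genes thus stood far apart in level in both genotypes, with Gad1 at 43.4 to 70.5 times the RPKM of Gad2 in wild type and 30.7 to 65.6 times in Ythdf2-/-.

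Lhx6, the factor of the medial eminence branch, had 0, 2 and 1 reads in wild type and 0, 0 and 1 in Ythdf2-/-. At these counts no difference was detectable. Of 11 other LIM homeobox genes, Lhx2, a progenitor and dorsal forebrain factor, was the one that passed the filter, at 30.0 ± 8.22 CPM in wild type and 36.1 ± 20.6 CPM in Ythdf2-/- (SD, n = 3), while Lhx1, Lhx3, Lhx8 and Isl1 had no read.

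Over the 9 genes, 5 passed the filter (Dlx1, Dlx2, Gad1, Gad2 and Sp8). Since Dlx1 passed through the wild-type libraries alone, it is set aside in the following counts. Of the other 4 genes, 3 had a log2 fold change below 0, with a median of -0.74 (-1.20 with Dlx1), where the median over all genes tested was -0.01. At an unadjusted p under 0.05 and lower in Ythdf2-/-, Sp8 alone passed, and the share of all genes tested was 1.82%. Sp8 was also the one gene of the 4 with all Ythdf2-/- libraries below all wild-type libraries, which held for 4.92% of all genes tested. Wild-type replicate 3 was the highest library for 3 of the 4, against 33.8% of all genes tested. Genes of similar depth, with 50 to 250 reads over the 6 libraries, include Sp8, Dlx2 and Gad2. Of 1649 such genes, 4.61% had an unadjusted p under 0.05 and 8.07% had a log2 fold change of -1 or lower, against 2.78% of all genes tested.

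Other genes of the lineage were followed in 5 lists with 81 genes, of which 60 passed the filter. None of the 60 passed an adjusted p under 0.05 in edgeR's test. At an unadjusted p under 0.05, 3 were higher and 2 lower in Ythdf2-/-, where the shares of all genes tested were 1.81% and 1.82%, and the median log2 fold change of the 60 was 0.07. These counts rested on wild-type replicate 3: without it, 13 of 60 were higher and 1 lower, where the shares of all genes were 8.03% and 8.58%, and the median was 0.20. DESeq2 called 2 of 76 lineage genes, Elfn1 and Synpr, both higher in Ythdf2-/-, and 0.476% of all its genes.

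Among ventral progenitor factors, 9 of 12 genes passed the filter, and 1, Nkx2-2, was lower in Ythdf2-/- at an unadjusted p under 0.05, as were 1.82% of all genes tested. Olig2, a basic helix-loop-helix factor of ventral and oligodendrocyte progenitors, was abundant at 429 ± 91.8 CPM in wild type and 467 ± 48.7 CPM in Ythdf2-/- (SD, n = 3), with a log2 fold change of 0.12 that was -0.05 without wild-type replicate 3. Gsx2, which acts upstream of Dlx genes in the lateral eminence, was at 1.11, 1.6 and 2.47 CPM in wild type and 1.11, 0.963 and 0.161 CPM in Ythdf2-/-. The Gsx2 groups were separated by less than 0.01 CPM and by no read, with 13 reads in both wild-type replicate 1 and Ythdf2-/- replicate 1, and its log2 fold change was -1.20 (SE 0.67, unadjusted p = 0.119 in edgeR's test). Nkx2-2, a ventral patterning and oligodendrocyte-lineage factor, was at 8.56, 8.09 and 17.3 CPM and at 3.24, 6.44 and 6.11 CPM, without overlap, with a log2 fold change of -1.10 (SE 0.42, unadjusted p = 0.0391 in edgeR's test) that was -0.66 without wild-type replicate 3.

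Among the lineage transcription factors, 22 of 25 genes passed the filter, and 1, Npas3, was higher at an unadjusted p under 0.05, as were 1.81% of all genes tested. Npas3, a helix-loop-helix factor of neural progenitors and interneurons, was at 139, 147 and 122 CPM in wild type and 185, 158 and 262 CPM in Ythdf2-/-. All its Ythdf2-/- libraries were higher (log2 fold change 0.57, SE 0.21, unadjusted p = 0.0362 in edgeR's test). Sox6, which acts downstream of Lhx6 in interneurons and also in glial precursors, was at 295 ± 209 and 250 ± 70.4 CPM (SD, n = 3), with 536 CPM in wild-type replicate 3 and a log2 fold change of -0.24 that was 0.51 without that library.

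Of the genes that handle GABA, several were abundant in both genotypes while that of the vesicular transporter was all but absent. Slc6a11, which encodes a glial GABA uptake transporter, was at 570 ± 145 CPM in wild type and 704 ± 270 CPM in Ythdf2-/- (SD, n = 3). Abat, which encodes GABA transaminase, was at 478 ± 142 and 578 ± 78.0 CPM (SD, n = 3), and Glul, which encodes the glial glutamine synthetase, was at 639 ± 64.7 and 896 ± 390 CPM (SD, n = 3). Slc32a1 had 1 read in wild-type replicate 1 and none in the other libraries. The uptake transporter gene Slc6a13 was also low, at 0 to 8 reads a library. The other 6 of the 8 genes passed the filter, and none had an unadjusted p under 0.05. Of the GABAA receptor subunits, 7 of 12 passed the filter and none had an unadjusted p under 0.05. Gabrg1 was the most abundant, at 93.3 ± 31.2 and 104 ± 28.7 CPM (SD, n = 3), with a log2 fold change of 0.16 that was -0.09 without wild-type replicate 3.

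Among subtype and migration genes, 16 of 24 passed the filter, 2 higher and 1 lower in Ythdf2-/- at an unadjusted p under 0.05, where the shares of all genes tested were 1.81% and 1.82%. Elfn1, which encodes a synaptic adhesion protein of interneurons, was at 43.4, 40.1 and 49.0 CPM in wild type and 82.1, 105 and 70.1 CPM in Ythdf2-/- (log2 fold change 0.96, SE 0.18). Synpr, which encodes the vesicle protein synaptoporin, was at 8.99, 7.86 and 5.4 CPM and at 16.9, 31.8 and 15.5 CPM (log2 fold change 1.53, SE 0.36). Both had adjusted p-values of 0.999 in edgeR's test, and DESeq2 gave adjusted p-values of 0.000319 for Elfn1 and 0.0091 for Synpr. Pvalb, which encodes the calcium buffer of a class of fast-spiking interneurons, was at 4.11, 3.89 and 3.29 CPM and at 1.11, 2.0 and 0.483 CPM (log2 fold change -1.64, SE 0.50, unadjusted p = 0.0164 in edgeR's test). Of the peptide genes that mark other classes, Sst had no read and Vip 1 read in all. Npy had 14, 11 and 9 reads in wild type and 0, 12 and 1 in Ythdf2-/-, so its groups overlapped, with a log2 fold change of -1.48 (SE 1.01).

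**Figure D3:**
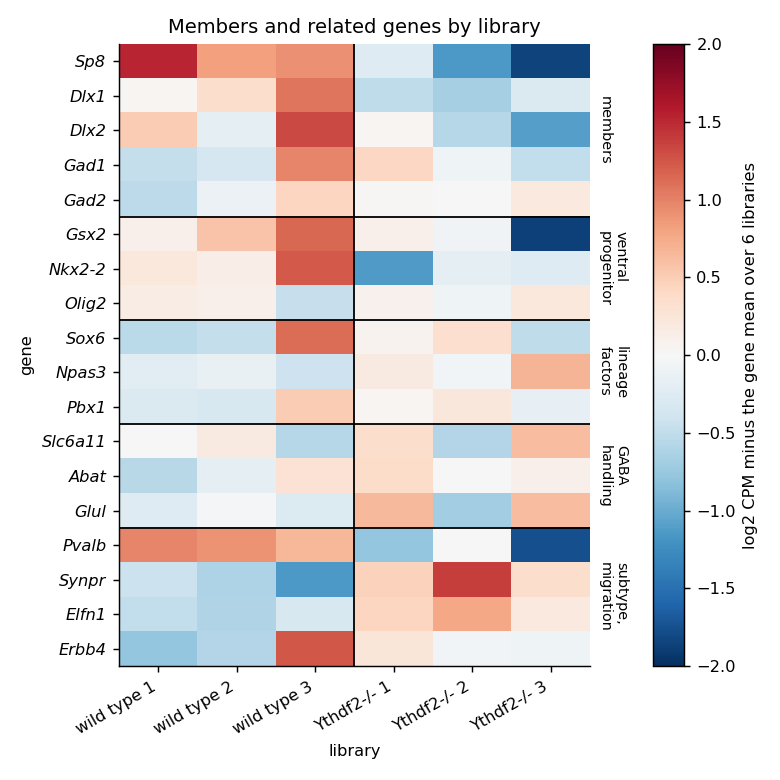
Log2 CPM minus the gene's mean over the 6 libraries (colour, from -2 in blue to 2 in red) for the 5 genes that passed the filter and 13 genes of 4 lineage lists, some of them picked after their values were seen; columns are libraries, rows are genes. Sp8 and Pvalb are lower and Synpr and Elfn1 higher in all 3 Ythdf2-/- libraries, while Gad1, Sox6 and Erbb4 are highest in wild-type replicate 3.

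Markers of other cells that the cultures could hold did not all move alike. Microglial genes summed to 1.13 to 1.54 CPM with Ptprc and Trem2 at 0, and endothelial genes to 1.01 to 3.59 CPM. Of 8 astrocyte genes tested, Gfap alone had an unadjusted p under 0.05 in edgeR's test. It was lower in Ythdf2-/-, as were 1.82% of all genes tested. Its log2 fold change was -4.22 and, without wild-type replicate 3, -2.85, and the median of the 8 was 0.03. Of 8 oligodendrocyte-lineage genes tested, 4 were lower and 1 higher at that threshold, against 1.82% and 1.81% of all genes. Their median of -2.36 was -0.30 without wild-type replicate 3. Young neuron genes summed to 784 to 1320 CPM in wild type and 847 to 1067 CPM in Ythdf2-/-, with Dcx at 315 CPM in wild-type replicate 3 and 8.36 to 13.1 CPM elsewhere. Of 15 such genes 14 passed the filter, 11 with a log2 fold change below 0 and 3 above. At an unadjusted p under 0.05 in edgeR's test, 3 were lower and 0 higher. The median log2 fold change of the 14 was -0.59, and 0.13 without wild-type replicate 3. Stmn2, a growth cone gene of young neurons, was at 1.48 ± 0.0486 and 0.280 ± 0.274 CPM (SD, n = 3) and, like Sp8, lower in all Ythdf2-/- libraries. It passed the filter through the wild-type libraries alone, as Dlx1 did, and the part of neuron or glial content in the Sp8 difference was not tested. Of 17 dorsal and glutamatergic genes 7 passed the filter, none with an unadjusted p under 0.05, and Pax6, a dorsal progenitor factor, was at 62.5 ± 26.2 and 55.7 ± 9.41 CPM (SD, n = 3), with a log2 fold change of -0.17 that was 0.23 without wild-type replicate 3. Among the 11 radial glia and stem cell genes, Prom1 alone had an unadjusted p under 0.05 in edgeR's test, lower in Ythdf2-/-. Its log2 fold change was -2.43 (-1.60 without wild-type replicate 3), with an adjusted p of 0.00883 in DESeq2. The median log2 fold change of the 11 genes was -0.01.

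The genes whose levels ran most like each member were found from the root mean square difference of log2 CPM, centred on each gene's mean, over the 6 libraries. For Sp8 these were Galnt15 (0.44), Pdlim4 (0.50) and Pvalb (0.57), beside an SD of 1.20 for Sp8 itself on this scale. Galnt15 was at 0 to 0.148 CPM in Ythdf2-/- and passed the filter through the wild-type libraries alone. This difference grows with a gene's own spread, so it does not rank members against each other. For Gad1 they were Mmp24 (0.07), Mkrn1 (0.10) and Rhou (0.11), for Gad2 1700094D03Rik (0.06), Smg6 (0.06) and Parp4 (0.08), for Dlx1 Mfsd7b (0.10), BC022687 (0.11) and Ggct (0.13), and for Dlx2 Plagl1 (0.22), Nme5 (0.24) and LOC105246056 (0.25). The neighbours Dlx1 and Dlx2 differed from each other by 0.51. The 6 libraries share wild-type replicate 3 as their most deviant point, and the values of genes at low counts carry a large counting error.

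The letters GGACT, the common core of m6A sites, were counted in the longest coding transcript of each gene as a description. They occurred 1.46 times per kb in Dlx1, 1.21 in Dlx2, 2.11 in Dlx5, 1.81 in Dlx6, 0.298 in Gad1, 0.522 in Gad2, 0.893 in Sp8, 0.886 in Sp9 and 1.15 in Lhx6, beside a median of 1.04 over 12288 genes tested that had a transcript sequence. The Dlx genes lay above that median and Gad1, Gad2, Sp8 and Sp9 below it. Whether these transcripts carry m6A was not analysed here.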

How the data were processed

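Neurosphere mRNA was measured in 6 input libraries, 3 per genotype, grouped by their labels, and the 6 m6A-IP samples were not analysed here. The authors aligned reads to mm10 with TopHat, and the submitters' processing notes also name Bowtie2 2.2.9, RSEM 1.2.15 and featureCounts. The authors deposited raw counts per gene, without normalization. The authors also deposited expected counts, TPM and FPKM per gene, in tables whose expected counts summed to 1.97% to 2.40% of the raw counts, so these were used only as an alternative and for the values in the closing section.

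The members, lists and tests were chosen with earlier results of these data known. Counts were fitted with edgeR 4.0.16 in R 4.3.3 (TMM, filterByExpr, glmQLFit with the robust option, glmQLFTest, genotype as the only term) and adjusted by Benjamini-Hochberg over 13112 genes. The filter asked for about 0.822 CPM in 3 libraries. Self-tests on simulated counts preceded the fits. Alternatives, in number 17, were DESeq2 1.42.0, limma 3.58.1 with voom and quality weights or on log2(FPKM + 1) and log2(FPKM + 0.1), other normalizations and filters, the robust option, a replicate block, a term for Y-linked reads and leaving out each library. Tables were handled in Python 3.11.15 (pandas 2.3.3, scipy 1.17.1). The text names all members, Ythdf2, antisense RNAs and paralogs, the 3 most abundant and 2 most different genes of each list, where they bear on the members, and the 3 genes most like each tested member. Some list members are counted but not reported by name. Abat, Slc32a1, Slc6a13, Elfn1, Npy, Sst, Vip and the marker genes at 0 were named after their values were seen. Positions, lengths and promoters came from RefSeq for GRCm38.p6 and transcripts from GENCODE M21.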

Additional observations from a re-analysis of the deposited data

Results flagged for a closer look

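In the separate tables of expected counts, which the comparisons do not use, some genes of the lineage had higher values than in the raw counts and others far lower ones. Lhx6 was listed with 4.87 to 12.28 expected counts in every library, while its raw counts were 0 to 2. Gad2 was listed with 17.63 to 46.33 expected counts, in sum 207% of its raw counts. Dlx1as was listed with 4 to 12 expected counts against 0 to 3 raw counts, while Dlx1 was listed at 0 in every library against 73 raw counts in all. Gad1 was listed with at most 2 expected counts against 347 to 896 raw counts. Sp8, Dlx2 and Sp9 summed to 6, 1 and 1.26 expected counts against 213, 117 and 48 raw counts. Of 18851 genes with any count, 8.28% had more expected than raw counts, and the median over genes tested was 0.196%. The cause of the difference between the tables was not tested.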

How the results depend on the processing

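Of the 5 genes tested, Sp8, Dlx1 and Dlx2 kept a log2 fold change below 0 under every alternative that gave them a value. With limma-voom, however, Dlx2 went from -1.27 to -0.42 and Dlx1 from -1.20 to -0.83. That fit gave wild-type replicate 3 a weight of 0.0957, against 0.477 to 4.09 for the other libraries. It is thus not independent of the fit without that library. Sp8 went from -2.21 to -0.71 on log2(FPKM + 1), where it had at most 4 expected counts a library, too few to bear on its direction. Sp8 passed an adjusted p under 0.05 with DESeq2 only, at -2.23. Gad1 reversed to 0.40 without wild-type replicate 3, 0.52 with limma-voom, and 1.20 and 3.12 on log2(FPKM + 1) and log2(FPKM + 0.1), from at most 2 expected counts. Gad2 reversed to -0.11 without wild-type replicate 1. With each library left out, Gad1 ranged from -0.47 to 0.40 and Gad2 from -0.11 to 0.43. The median of the members tested moved from -1.20 to -0.22 with at least 10 counts in every library, which leaves Gad1 alone, to -0.42 with limma-voom, and to 0.15 and 0.16 on the 2 FPKM scales, with 4 members, and it ranged from -1.29 to -0.75 when each library was left out. With Dlx1 set aside, a choice made after seeing the data, it was -0.74. DESeq2 called 1 member and 2 lineage genes, and limma-voom 0 and 4. Over all genes, edgeR called 0 (476 at an unadjusted p under 0.05), DESeq2 88, limma-voom 151, RLE factors 1, no filter 1, at least 10 counts 1, the Y-linked term 13, the FPKM scales 2 and 1, and 0 to 2 when each library was left out. Apart from these constructions the cause was not tested. Libraries that share a replicate number between genotypes correlated at -0.25, -0.24 and -0.39, in deviations from the mean of each genotype. No library correlated best with its own number. Wild-type replicate 3 dominated the deviations in its group, so this check cannot tell whether the numbers pair the libraries. With the replicate block, 0 genes were called, the member median was -1.15 and Sp8 was at -2.32. Depth limits Dlx1, Dlx2, Gad2, Sp9 and Lhx6, at 0 to 41 reads a library, and also Sp8 in Ythdf2-/-, at 6 to 21 reads.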
